A study of Mus musculus with 6 samples.

Results

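Keratins are the intermediate filament proteins of epithelial cells, and 9 keratin genes that mark the basal or the luminal layer of the prostate were followed here: Krt5, Krt14, Krt15 and Krt17 of the basal layer, Krt8 and Krt18 of the luminal layer, and Krt19, Krt7 and Krt4, which mark other or overlapping epithelial states. The genes were chosen by symbol from the 47719 gene IDs of the expression files, and all 9 were found. Their levels were compared between wildtype, heterozygous and homozygous Trp53 R270H mice, together with the basal to luminal ratio of each mouse.

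A keratin filament is built from pairs of 1 type I and 1 type II protein, so that cells express at least 1 gene of each type, and the pair in use changes with the cell layer. In the prostate, basal cells sit on the basement membrane and carry Krt5 with Krt14, whereas the secretory luminal cells above them carry Krt8 with Krt18. Pathologists use the loss of basal keratins as a sign of invasive prostate cancer, and mouse studies use the same genes to count basal and luminal cells.

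RNA-Seq was performed on whole prostates of 6 mice of the strain B6.129S4-Trp53tm3.1Tyj/J, with 2 mice in each genotype: wildtype (Trp53+/+, mice 39 and 41), heterozygous (Trp53R270H/+, mice 37 and 40) and homozygous (Trp53R270H/R270H, mice 47 and 49). R270H is a missense change in the DNA-binding domain of p53, carried in the germline, so that no single cell type was targeted. All 6 mice received 5 Gy of whole body irradiation at about 3 months of age and were sampled 6 h later, and no unirradiated mouse was included, so the differences are between irradiated prostates. The values are FPKM, read fragments scaled to transcript length and library size, and as the files hold no base calls the R270H allele itself could not be checked from them.

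The sum of FPKM over all genes ranged from 518671 to 636407, and the number of genes at 1 FPKM or more from 13452 to 13827. Read totals are not in the files. A pair of libraries stood apart. In wildtype mouse 39 the summed FPKM of 7 seminal vesicle genes was 3490, against 35200 to 59500 in the other mice. In homozygous mouse 47 the secretory gene probasin (Pbsn) was 257 FPKM, against 7330 to 11500 FPKM in the other mice, while the other 9 luminal cell markers summed to 769 FPKM, against 1003 to 1696 FPKM. The prostate identity of the tissue was otherwise plain from its markers, as the epithelial adhesion gene Epcam ranged from 155 to 239 FPKM, and the basal transcription factor Trp63 from 3.19 to 5.94 FPKM.

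The 9 genes lie in the 2 keratin clusters of the mouse genome (GRCm38, gene positions from GENCODE). Except for Krt18, the type I genes are on chromosome 11, with Krt15 at chr11:100131758-100135928, Krt19 at chr11:100140810-100148665, Krt14 at chr11:100203162-100207548 and Krt17 at chr11:100256217-100261029, all on the minus strand, whereas Krt18 lies at chr15:102028180-102032027 on the plus strand. The type II genes are on chromosome 15, with Krt7 at chr15:101411043-101430313 on the plus strand, and Krt5 at chr15:101707070-101712898, Krt4 at chr15:101918535-101924735 and Krt8 at chr15:101996698-102004482 on the minus strand. The luminal pair Krt8 and Krt18 lie 23.7 kb apart. The 4 keratins on chromosome 11 lie between 30.5 and 30.7 Mb from Trp53 itself, and whether mutant mice carry 129S4 sequence over that distance was not tested.

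RefSeq promoter sequences (GRCm38.p6, the 250 bases before each start site) were at hand for 5 of the 9 genes. Those of Krt5 and Krt7 are shown, since Krt5 is the defining basal keratin and Krt7 had the largest fold change of the 9 genes. The Krt5 window is chr15:101712906-101713155 on the minus strand, and its capitals mark a single match to the p53 half-site motif, which reads the same on both strands and starts 95 bases before the start site. The Krt7 window is chr15:101412153-101412402 on the plus strand, and its capitals mark the GC box, GGGCGG or its reverse complement, at 141, 128, 56 and 24 bases before the start site. This window lies within the annotated span of the Krt7 gene, which has 5 transcripts.
Krt5 promoter: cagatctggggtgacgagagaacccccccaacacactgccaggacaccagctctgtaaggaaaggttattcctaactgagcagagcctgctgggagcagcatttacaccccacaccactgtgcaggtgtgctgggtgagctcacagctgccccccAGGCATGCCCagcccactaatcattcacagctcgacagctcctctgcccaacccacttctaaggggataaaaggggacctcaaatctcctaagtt
Krt7 promoter: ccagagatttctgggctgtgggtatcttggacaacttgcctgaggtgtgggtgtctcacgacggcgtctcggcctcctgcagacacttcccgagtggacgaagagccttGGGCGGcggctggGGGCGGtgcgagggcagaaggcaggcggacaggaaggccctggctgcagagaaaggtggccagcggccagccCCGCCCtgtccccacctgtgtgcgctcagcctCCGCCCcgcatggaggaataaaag
Among the 5 keratin promoters, the p53 half-site was in that of Krt5 alone and the GC box in that of Krt7 alone, against 7.13% and 32.7% of the 32851 promoters of the same length. A TATA box spelled TATAAA, an AP-1 motif spelled TGANTCA and a CCAAT box, searched on both strands, were in none of the 5, against 12.4%, 6.75% and 33.8% of all promoters. Such matches describe letters in a window and are not evidence of binding.

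Expression was highest for Krt18 and Krt19 and spanned more than 2 orders of magnitude. On the FPKM scale, which is per length, the mean level over the 6 mice was 415 for Krt18 and 412 for Krt19, then 165 for Krt8, 92.9 for Krt15, 35.0 for Krt5, 24.1 for Krt4, 17.8 for Krt7, 6.75 for Krt14 and 1.97 for Krt17. The ranges of Krt18 and Krt19 overlapped, as did those of Krt4 and Krt7, and the lowest Krt7 value met the highest Krt14 value at 9.67 FPKM. The other neighbours in this order did not overlap over the 6 mice. The summed FPKM of the 9 genes was 1260 and 1400 in wildtype, 1250 and 1100 in the heterozygotes and 1050 and 948 in the homozygotes, so the sum was lower in both homozygous mice than in any other mouse. As a share of all FPKM it was 0.232% and 0.231% in wildtype mice, and 0.165% to 0.198% in the 4 mutant mice. Over the 6 mice, Krt14 varied most, by 2.6 times between the lowest and the highest mouse, followed by Krt7 with 2.59 times, and Krt18 varied least, by 1.32 times. In whole tissue, fewer cells of a type and less RNA per cell cannot be told apart.

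**Figure D1:**
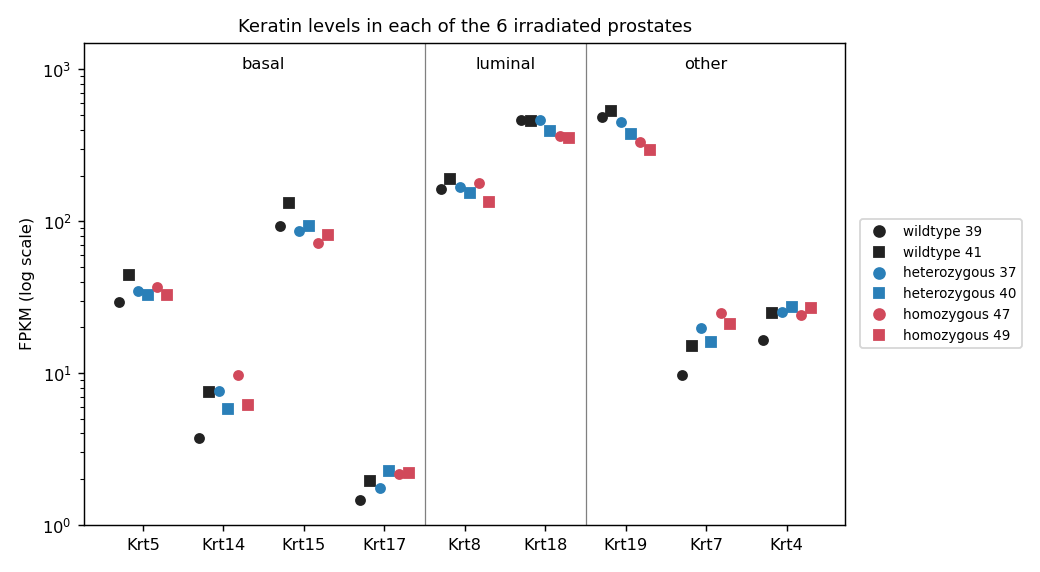
FPKM on a log axis for each keratin, with 1 point per mouse, coloured by genotype. Krt19 was 483 and 533 FPKM in wildtype and 335 and 293 FPKM in homozygous mice, Krt7 went the other way, from 9.67 and 15.0 FPKM to 25.0 and 21.0 FPKM, and the points of Krt5 and Krt8 overlapped between genotypes.

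Krt5, the type II keratin of basal cells, was 29.4 and 44.0 FPKM in wildtype, 34.5 and 32.5 FPKM in heterozygous and 36.9 and 32.5 FPKM in homozygous mice. The 2 wildtype mice were the lowest and the highest of all, with the 4 mutant mice between them. Homozygous mice differed from wildtype by a log2 fold change of -0.06 ± 0.21 (SE, n = 2 mice a genotype; 95% interval -0.57 to 0.45; limma adjusted p = 0.906). For heterozygous mice it was -0.10 (95% interval -0.61 to 0.41; limma adjusted p = 0.97). Both intervals span 0, and the means were 36.7 ± 10.3, 33.5 ± 1.42 and 34.7 ± 3.13 FPKM (SD, n = 2), with the widest spread in wildtype.

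Krt14, the type I partner of Krt5, was 3.72 and 7.52 FPKM in wildtype, 7.57 and 5.82 FPKM in heterozygous and 9.67 and 6.19 FPKM in homozygous mice. The lowest value was in wildtype mouse 39 and the highest in homozygous mouse 47, the libraries that stood apart, and the other 4 mice lay between 5.82 and 7.57 FPKM. Against wildtype, the homozygous log2 fold change was 0.54 ± 0.38 (SE, n = 2; limma adjusted p = 0.499), and it was -0.28 without mice 39 and 47. The direction for Krt14 therefore rested on these libraries. Heterozygous mice were 0.32 above wildtype on the log2 scale (limma adjusted p = 0.937), a value that was -0.18 without mouse 39.

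Krt15, a type I keratin of basal cells that also marks progenitor cells in other stratified epithelia, was the most abundant of the basal keratins. It was 93.6 and 131 FPKM in wildtype, 86.6 and 92.4 FPKM in heterozygous and 72.4 and 81.5 FPKM in homozygous mice. The 3 genotypes did not overlap, although wildtype mouse 39 lay just above heterozygous mouse 40. In homozygous mice the log2 fold change from wildtype was -0.53 ± 0.19 (SE, n = 2; 95% interval -0.99 to -0.06; limma unadjusted p = 0.033, adjusted p = 0.244), so it did not pass the threshold over all genes. Heterozygous mice lay between, with -0.31 against wildtype (limma adjusted p = 0.86) and a further -0.22 to homozygous mice (limma adjusted p = 0.743). Relative to 10 pan-epithelial genes, whose median log2 fold change was -0.22, the homozygous value against wildtype was -0.29 (unadjusted p = 0.245 by limma).

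Krt17, a basal and stress-related type I keratin, was the lowest of the 9 genes, at 1.46 and 1.96 FPKM in wildtype, 1.76 and 2.26 FPKM in heterozygous and 2.16 and 2.21 FPKM in homozygous mice. The homozygous mice were above both wildtype mice and within the heterozygous range. From wildtype to homozygous mice the log2 difference was 0.35 ± 0.26 (SE, n = 2; limma adjusted p = 0.516). For heterozygous mice it was 0.22 (limma adjusted p = 0.935), and both intervals span 0. At this level the added pseudocount of 0.1 FPKM is a larger share of the value than for the other keratins.

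Krt8, the type II keratin of luminal cells, was 163 and 189 FPKM in wildtype, 169 and 154 FPKM in heterozygous and 179 and 134 FPKM in homozygous mice. Homozygous mouse 47 was second only to wildtype mouse 41, homozygous mouse 49 was the lowest of all, and the genotypes overlapped. Homozygous mice differed from wildtype by a log2 fold change of -0.18 ± 0.19 (SE, n = 2; 95% interval -0.65 to 0.29; limma adjusted p = 0.643). For heterozygous mice it was -0.12 (limma adjusted p = 0.959), and the spread between the homozygous mice, 32.0 FPKM (SD, n = 2), was larger than any difference between genotype means. Of the 100-base stretches of Krt8 transcripts, 16.9% also occur in the pseudogene Krt8-ps, so part of its reads could have been split between the 2 genes. The like share was 2.78% for Krt14 and 2.38% for Krt5, and none was found for the other 6 keratins.

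Krt18, the type I partner of Krt8, was 462 and 458 FPKM in wildtype, 461 and 392 FPKM in heterozygous and 367 and 351 FPKM in homozygous mice. Both homozygous mice were below all 4 others. Against wildtype, the homozygous log2 fold change was -0.36 ± 0.17 (SE, n = 2; 95% interval -0.78 to 0.07; limma adjusted p = 0.336), and the interval spans 0. The wildtype mice differed little (460 ± 2.81 FPKM, SD, n = 2), and so did the homozygous mice (359 ± 11.6 FPKM), whereas the heterozygous mice were further apart (427 ± 48.4 FPKM), with 1 at the wildtype level. The log2 fold change was -0.11 for heterozygous against wildtype (limma adjusted p = 0.954) and -0.24 for homozygous against heterozygous mice (limma adjusted p = 0.713). Relative to the pan-epithelial genes the homozygous value against wildtype was -0.12.

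Krt19, a type I keratin without a fixed type II partner that is found in luminal and intermediate cells, was 483 and 533 FPKM in wildtype, 449 and 376 FPKM in heterozygous and 335 and 293 FPKM in homozygous mice. Its values followed the number of R270H alleles with no overlap between genotypes, and the means were 508 ± 34.9, 413 ± 51.6 and 314 ± 29.3 FPKM (SD, n = 2). In homozygous mice the log2 fold change from wildtype was -0.69 ± 0.19 (SE, n = 2; 95% interval -1.15 to -0.24; limma unadjusted p = 0.0103, adjusted p = 0.18), a level 0.618 times that of wildtype. It was -0.30 for heterozygous against wildtype mice (limma adjusted p = 0.86) and -0.39 for homozygous against heterozygous mice (limma adjusted p = 0.707). Without mice 39 and 47 the homozygous log2 fold change was -0.86, so the lower level did not rest on the libraries that stood apart.

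Krt7, a type II keratin of simple ductal and glandular epithelia and of the urothelium, was 9.67 and 15.0 FPKM in wildtype, 19.8 and 16.1 FPKM in heterozygous and 25.0 and 21.0 FPKM in homozygous mice. Its values also followed the number of R270H alleles with no overlap, in the upward direction, with means of 12.3 ± 3.75, 17.9 ± 2.59 and 23.0 ± 2.84 FPKM (SD, n = 2). From wildtype to homozygous mice the log2 difference was 0.92 ± 0.24 (SE, n = 2; 95% interval 0.33 to 1.51; limma unadjusted p = 0.00904, adjusted p = 0.174), a 1.9-fold higher level. It was 0.56 for heterozygous against wildtype mice (95% interval -0.03 to 1.16; limma adjusted p = 0.757) and 0.36 for homozygous against heterozygous mice (limma adjusted p = 0.71). Without mice 39 and 47, which held the lowest and the highest value, the homozygous fold change was 0.48 on the log2 scale.

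Krt4, a type II keratin of stratified epithelia that also marks luminal cells of the proximal prostate ducts, was 16.6 and 24.8 FPKM in wildtype, 25.1 and 27.2 FPKM in heterozygous and 24.1 and 27.0 FPKM in homozygous mice. Wildtype mouse 39 was the lowest, and the other 5 mice lay within a narrow range. Homozygous mice differed from wildtype by a log2 fold change of 0.33 ± 0.21 (SE, n = 2; limma adjusted p = 0.442), and it was 0.04 without mouse 39. The heterozygous value was 0.36 (limma adjusted p = 0.853), and 0.08 without mouse 39, while homozygous and heterozygous mice differed by -0.03.

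**Figure D2:**
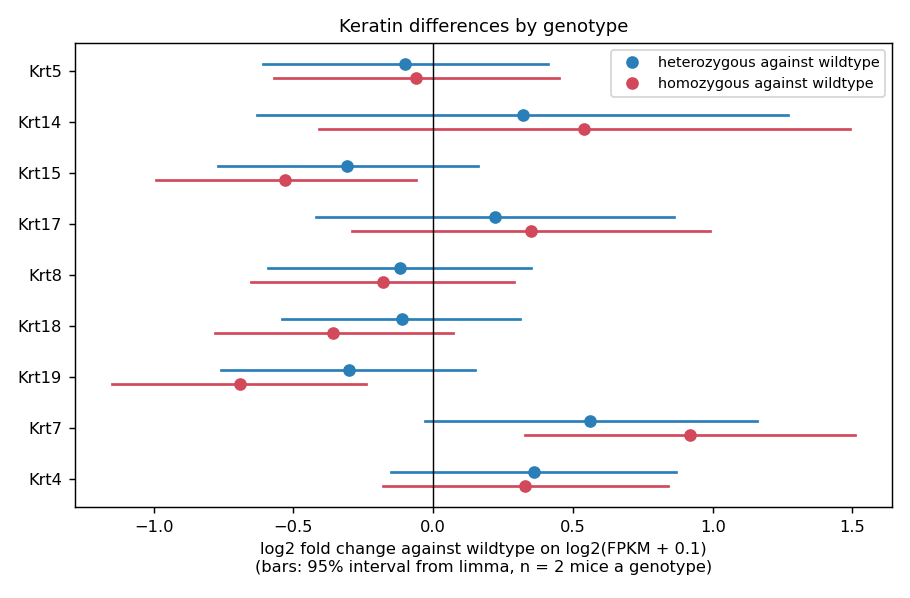
Log2 fold change of each keratin against wildtype for heterozygous and homozygous mice, with bars for the 95% interval from limma (n = 2 mice a genotype). For homozygous mice the intervals of Krt15 (-0.99 to -0.06), Krt19 (-1.15 to -0.24) and Krt7 (0.33 to 1.51) leave out 0 before adjustment, and those of the other 6 keratins include it.

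No keratin passed an adjusted p of 0.05 in any comparison. In homozygous against wildtype mice, 0 of the 9 were called by limma, where 0.384% of the 13818 genes tested were called. At an unadjusted p under 0.05, 3 of the 9 passed, against a background of 18.0% of all genes, with Krt7 higher (8.65% of all genes) and Krt15 and Krt19 lower (9.32%), and a linear model on each gene alone, with no shared estimate of the spread, gave 2 of 9 and no adjusted call. The count was 1 without mouse 47 and 1 without mouse 49. In heterozygous against wildtype mice 0 of the 9 were called, with 0% of all genes called, and none passed unadjusted, where 6.87% of all genes did (4.66% higher and 2.21% lower). This member count was 2 after quantile normalization (Krt7 and Krt19) and 2 without mouse 41, and it was 1 without mouse 39, without mice 39 and 47, and relative to the pan-epithelial genes. In homozygous against heterozygous mice 0 of the 9 were called, against 0.0145% of all genes, and again none passed unadjusted, where 6.39% of all genes did. These background shares moved with single mice, as the 949 genes behind the heterozygous share were 495 without mouse 40 and 546 without mouse 37, and the 883 behind the other were 178 without mouse 37, 505 without mouse 47 and 1690 without mouse 49. The test on each gene alone also gave 0 in both of these comparisons. In the F-test over the 3 genotypes 0 of the 9 were called, against 0.101% of all genes, and 2 (Krt7 and Krt19) passed unadjusted, against 11.5%, and 0 did without mouse 47 or without mouse 49. With 2 mice against 2, an exact two-sided permutation test cannot give a p below 0.333.

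By the plain order of the values, 5 of the 9 keratins did not overlap between homozygous and wildtype mice, with Krt7 and Krt17 higher and Krt15, Krt18 and Krt19 lower, which is close to the background of 50.0% of all genes (21.3% higher and 28.7% lower). Between heterozygous and wildtype mice 4 of 9 did not overlap, with Krt7 and Krt4 higher and Krt15 and Krt19 lower, against 39.0% of all genes (19.2% higher and 19.9% lower). Between homozygous and heterozygous mice it was also 4 of 9, with Krt7 higher and Krt15, Krt18 and Krt19 lower, against 42.1% (18.0% higher and 24.1% lower). The values of 3 of the 9 followed the number of R270H alleles, upward for Krt7 and downward for Krt15 and Krt19, where 8.83% of all genes did so (3.85% upward and 4.98% downward). Krt15 left this order after quantile normalization and relative to the pan-epithelial genes, which leaves 2 of 9. Across the 9 keratins the median log2 fold change between homozygous and wildtype mice was -0.06, beside -0.041 over all genes tested.

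The basal to luminal ratio, (Krt5 + Krt14) / (Krt8 + Krt18) on FPKM, compares the defining pair of each layer within a mouse. It was 0.0530 and 0.0797 in wildtype, 0.0668 and 0.0701 in the heterozygotes and 0.0852 and 0.0797 in the homozygotes. Wildtype mouse 39 had the lowest ratio, whereas wildtype mouse 41 was level with homozygous mouse 49 to 3 digits. On the log2 scale the homozygous mean was 0.34 above the wildtype mean, with a spread between mice of the same genotype of 0.24 (pooled SD). Without mouse 39 the difference was 0.05.

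The ratio depended on which keratins stood for each layer. With all 4 basal keratins over Krt8 + Krt18 it was 0.205 and 0.285 in wildtype, 0.207 and 0.243 in the heterozygotes and 0.222 and 0.252 in the homozygotes, so that the homozygous mice lay inside the wildtype range. The abundant Krt15 dominates this sum and was lower in the mutants. The ratio of Krt5 to Krt8 alone was 0.180 and 0.233 in wildtype and 0.206 and 0.242 in homozygous mice, which also overlap. For Krt14 to Krt18 it was 0.00806 and 0.0164 in wildtype and 0.0263 and 0.0176 in homozygous mice, a log2 difference of 0.91 with a pooled SD of 0.48. That difference was 0.39 without mouse 39, 0.61 without mouse 47 and 0.10 without both.

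Ratios between single keratins were also formed within each mouse, and they describe RNA levels of whole tissue. Krt18 to Krt8, the luminal pair, was 2.83 and 2.43 in wildtype, 2.72 and 2.54 in the heterozygotes and 2.05 and 2.62 in the homozygotes, with mouse 47 alone below the rest. Krt15 to Krt5 was 3.18 and 2.97 in wildtype, 2.51 and 2.84 in the heterozygotes and 1.96 and 2.51 in the homozygotes, so both wildtype mice were above all mutant mice. Krt14 to Krt5, the basal pair, was 0.127 and 0.171 in wildtype, 0.219 and 0.179 in the heterozygotes and 0.262 and 0.191 in the homozygotes, so both wildtype mice were below all mutant mice. Krt19 to Krt18, the most abundant of the 9, was 1.05 and 1.16 in wildtype, 0.975 and 0.959 in the heterozygotes and 0.912 and 0.836 in the homozygotes. Krt19 was thus above Krt18 in both wildtype mice and below it in all 4 mutant mice. Krt7 to Krt19, formed after its genes were seen to differ in opposite directions and so only a description, was 0.0200 and 0.0281 in wildtype, 0.0440 and 0.0429 in the heterozygotes and 0.0747 and 0.0716 in the homozygotes.

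Summed over the 9 genes, type I keratins exceeded type II keratins in every mouse, with a type I to type II ratio of 4.76 and 4.15 in wildtype, 4.04 and 3.77 in the heterozygotes and 2.96 and 3.42 in the homozygotes. The values were lower with each added R270H allele, with no overlap. The log2 difference of homozygous from wildtype mice was -0.48, with a pooled SD of 0.12. The type I sum is mostly Krt18 and Krt19, so this ratio restates their lower values.

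**Figure D3:**
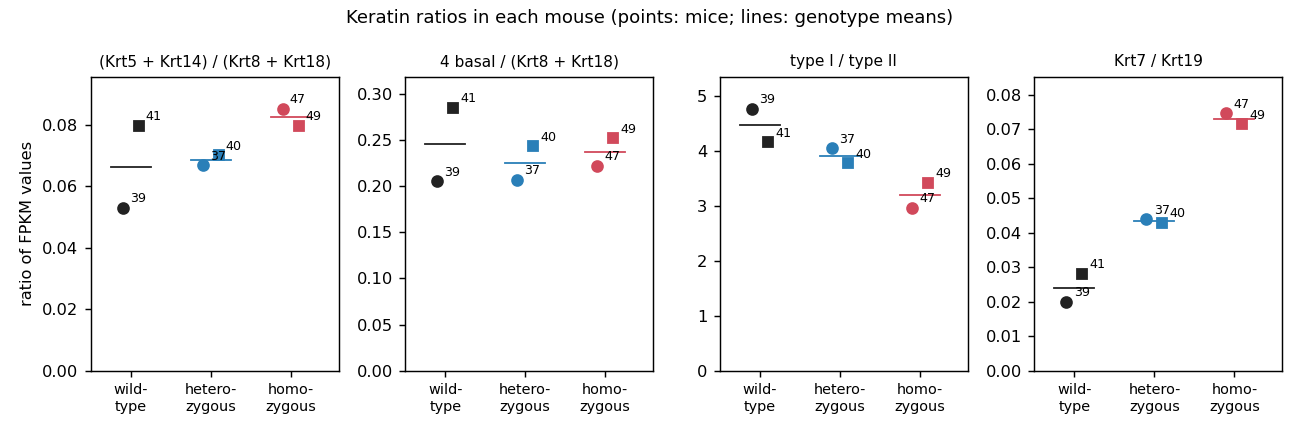
FPKM ratios in each mouse, with numbered points for mice and lines for genotype means. The (Krt5 + Krt14) / (Krt8 + Krt18) ratio of wildtype mouse 41 (0.0797) equals that of homozygous mouse 49, whereas the type I to type II ratio is 4.76 and 4.15 in wildtype and 2.96 and 3.42 in homozygous mice, without overlap.

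Other markers of the basal layer differed in direction. Of 11 basal cell markers, 10 were tested and 0 passed limma's adjusted threshold in homozygous against wildtype mice, with 2 higher and 1 lower at an unadjusted p under 0.05 and a median log2 fold change of -0.06. By the same measure 8.65% of all genes tested were higher and 9.32% lower. Trp63, the transcription factor that basal cells need, was 3.19 and 3.86 FPKM in wildtype, 4.05 and 4.19 FPKM in heterozygous and 5.54 and 5.94 FPKM in homozygous mice, with no overlap (log2 fold change 0.69, limma adjusted p = 0.153). Itgb4, the integrin subunit that anchors basal cells to the basement membrane, was 24.1 and 21.2 FPKM in wildtype and 14.4 and 15.1 FPKM in homozygous mice (log2 fold change -0.61, limma adjusted p = 0.128). Hence the homozygous mice had the higher Trp63 and the lower Itgb4 values while Krt5 overlapped between genotypes. The basal markers Itga6, Jag2 and Ngfr also overlapped between homozygous and wildtype mice, with log2 fold changes of -0.22, 0.10 and 0.00.

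Most luminal cell markers had lower values in the homozygous mice. Of 10 markers, 0 passed the adjusted threshold by limma, and 5 were lower and 1 higher at an unadjusted p under 0.05, with a median log2 fold change of -0.66. The shares over all genes tested were 9.32% lower and 8.65% higher. Pbsn was 257 FPKM in mouse 47 and 7330 FPKM in mouse 49. Hoxb13, a homeobox gene of luminal cells, was 154 and 136 FPKM in wildtype, 152 and 111 FPKM in heterozygous and 77.0 and 105 FPKM in homozygous mice, where both homozygous mice were below all others (log2 fold change -0.69, limma adjusted p = 0.222). In mouse 47 Krt8 was 179 FPKM and Krt18 367 FPKM, so these keratins were at the level of the other homozygous mouse or above while Pbsn was low.

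Genes shared by epithelial cells were mixed, and more of them were lower than higher in the homozygous mice. Of 10 pan-epithelial genes, 0 passed the adjusted threshold by limma, 2 were lower at an unadjusted p under 0.05, and 5 were lower and none higher without overlap, with a median log2 fold change of -0.22 in homozygous against wildtype mice. Among all genes tested, 9.32% were lower at that p, and 28.7% were lower and 21.3% higher without overlap. Epcam was 239 and 213 FPKM in wildtype, 209 and 188 FPKM in heterozygous and 155 and 171 FPKM in homozygous mice, without overlap (log2 fold change -0.47, limma adjusted p = 0.212). The cell junction gene Cdh1 had a log2 fold change of -0.25 (limma adjusted p = 0.472), and the tight junction gene Cldn3 one of 0.07 (limma adjusted p = 0.902). Cldn4 was 189 and 208 FPKM in wildtype and 102 and 109 FPKM in homozygous mice (log2 fold change -0.91, limma adjusted p = 0.0929). Spint2, the most abundant of the list, had a log2 fold change of -0.45 (limma adjusted p = 0.301). Both are among the 5 that were lower without overlap. The part of a lower epithelial share in the lower Krt15, Krt18 and Krt19 values was not tested.

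**Figure D4:**
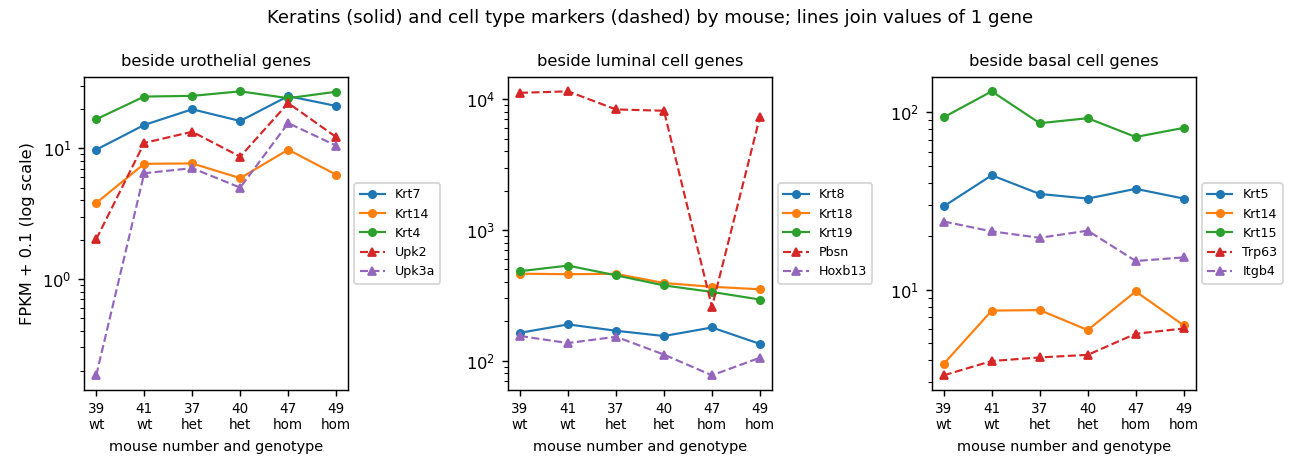
FPKM + 0.1 on a log axis in each mouse for keratins (solid) and markers of other cell types (dashed); lines join the values of 1 gene and mice of a genotype have no order. Upk3a, Upk2, Krt7, Krt14 and Krt4 were all lowest in mouse 39, and Pbsn and Hoxb13 were lowest in mouse 47, where Krt8, Krt18 and Krt19 were not. The more abundant Upk1a, which is not plotted, was highest in mouse 39 at 204 FPKM.

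The uroplakins, membrane proteins of the bladder and urethral lining, were read beside Krt7, which that lining also expresses. Upk2 was 1.92 and 10.9 FPKM in wildtype, 13.3 and 8.54 FPKM in heterozygous and 22.1 and 12.1 FPKM in homozygous mice. Upk3a was 0.084 and 6.35 FPKM in wildtype, 6.96 and 4.91 FPKM in heterozygous and 15.5 and 10.4 FPKM in homozygous mice. Both genes were lowest in mouse 39 and highest in mouse 47, as Krt7 was. Upk1a, the most abundant of the urothelial list, did not share this order. It was 204 and 114 FPKM in wildtype, 137 and 159 FPKM in heterozygous and 115 and 154 FPKM in homozygous mice, highest in mouse 39.

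The urothelial keratin Krt20 was listed at 0 in mouse 39 and was 0.487 to 1.62 FPKM in the others, highest in mouse 47. In contrast Upk1b was 89.8 and 119 FPKM in wildtype and 52.2 and 68.2 FPKM in homozygous mice, and the whole list of 6 urothelial genes summed to 252 to 296 FPKM in wildtype, 249 to 251 FPKM in heterozygous and 209 to 249 FPKM in homozygous mice. None of the 5 urothelial genes tested passed the adjusted threshold by limma. In homozygous against wildtype mice 1 was lower at an unadjusted p under 0.05, where 9.32% of all genes were lower. The part of urothelial tissue in the Krt7, Krt14 and Krt4 values was not tested.

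Proximal luminal markers, of the ducts near the urethra where Krt4 is also expressed, were read beside Krt4 and Krt7. Of 7 genes, 0 passed the adjusted threshold by limma, while 5 in heterozygous and 2 in homozygous mice were higher than wildtype at an unadjusted p under 0.05, with median log2 fold changes of 0.52 and 0.44. Over all genes tested, 4.66% were higher in heterozygous and 8.65% in homozygous mice by that measure. Clu, a secreted chaperone, was 255 and 326 FPKM in wildtype, 468 and 498 FPKM in heterozygous and 594 and 501 FPKM in homozygous mice (log2 fold change of homozygous mice 0.92, limma adjusted p = 0.146). Psca, a surface protein of proximal luminal cells, was 44.5 and 63.1 FPKM in wildtype and 69.8 and 76.0 FPKM in homozygous mice. Ly6a overlapped between wildtype and homozygous mice, with a log2 fold change of -0.04. The summed FPKM of the list, with Clu as the largest single part, was 573 and 695 in the wildtype mice and 895 to 984 in the 4 mutant mice. Its part in the Krt7 and Krt4 values was not tested.

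Keratin filaments end at desmosomes, which join cells, and at hemidesmosomes, which join basal cells to the basement membrane. Of 13 desmosome genes, 9 were tested, and 0 passed the adjusted threshold by limma in homozygous against wildtype mice, with 2 lower at an unadjusted p under 0.05 and a median log2 fold change of -0.35. At that unadjusted p, 9.32% of all genes tested were lower. Perp, a desmosomal p53 and p63 target, was 184 and 130 FPKM in wildtype, 113 and 110 FPKM in heterozygous and 101 and 107 FPKM in homozygous mice, lower in every mutant than in any wildtype mouse (log2 fold change of homozygous mice -0.58, limma adjusted p = 0.219). Plakoglobin (Jup), which links desmosomal cadherins to the filament anchor, was 61.5 to 72.6 FPKM in all mice. The epidermal cadherin Dsg1a was listed at 0 in every mouse.

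Of 9 hemidesmosome genes, all tested, 0 passed the adjusted threshold by limma and 1 (Itgb4) was lower at an unadjusted p under 0.05, with a median log2 fold change of -0.31. The share of all genes lower at that p in homozygous mice was again 9.32%. The tetraspanin Cd151 was 80.7 and 86.8 FPKM in wildtype and 73.8 and 70.5 FPKM in homozygous mice. Of the cytolinkers, the plakins that tie keratin to these junctions, 4 were measured and none passed, adjusted or unadjusted, with a median log2 fold change of 0.02. Plec, the broadest of them, was 24.0 to 30.6 FPKM.

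Beyond the 9 genes, keratins were scarce in these prostates. Of 42 other keratin genes, 2 reached a mean of 1 FPKM. Krt23, a type I keratin, was 14.4 and 22.3 FPKM in wildtype, 18.7 and 15.0 FPKM in heterozygous and 7.14 and 12.1 FPKM in homozygous mice, so that both homozygous mice were lowest (log2 fold change -0.94, limma adjusted p = 0.23). Krt80 was 0.815 to 1.45 FPKM. The 42 genes together summed to 13.2 to 27.1 FPKM, against 948 to 1400 FPKM for the 9.

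Squamous differentiation genes, which would accompany a change to skin-like epithelium, were mostly at or near 0. Of 13, only 3 were tested and none passed, adjusted or unadjusted, and Krt6b and Flg were listed at 0 in every mouse. Sprr1a, a cornified envelope protein gene, was the exception in level, at 32.7 and 80.9 FPKM in wildtype, 57.2 and 58.9 FPKM in heterozygous and 96.5 and 56.8 FPKM in homozygous mice. It was lowest in mouse 39 and highest in mouse 47, as Krt14 was, and the genotypes overlapped.

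Markers of tissue around the epithelium also differed between the mice. The skeletal muscle list summed to 1490 and 2180 FPKM in wildtype, 4150 and 4400 FPKM in heterozygous and 5050 and 4430 FPKM in homozygous mice, and 7 of its 8 genes were higher in homozygous mice at an unadjusted p under 0.05, with none past the adjusted threshold. The adipocyte list had 2 of 4 genes higher, the endothelial list 2 of 4 and the smooth muscle list 1 of 7 by the same measure, and the fibroblast and immune lists had none of 7 and none of 4. Across all genes tested, 8.65% were higher in homozygous mice by this measure. Of the seminal vesicle genes only Svs2 passed the adjusted threshold, being listed at 0 in both homozygous mice. Svs4 and Svs5 were listed at 0 in mouse 47 alone, whereas Svs1, Svs3a, Svs6 and Pate4 were highest in that mouse. There Svs6 was 26100 FPKM, against 28.6 to 1020 FPKM in the other mice, and the list summed to 59500 FPKM, the highest of all mice. The part of these tissues in the keratin values was not tested.

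Among the 9 keratins, Krt18 and Krt19 followed each other most closely over the 6 mice, with a Pearson r of 0.96 on log2(FPKM + 0.1), given as a description of 6 libraries that share genotypes in pairs. The 5 tested genes most like Krt5 by the same measure were Wnt10a (0.994), Wdr62 (0.991), C030037D09Rik (0.988), Aldh18a1 (0.986) and Cnn3 (0.984), and 94 genes exceeded 0.9. Those most like Krt8 were Pole3 (0.994), 1700056E22Rik (0.993), Ano8 (0.990), Alg9 (0.986) and Tmem199 (0.986), and 137 genes exceeded 0.9. No other keratin was among these 10 genes.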

How the data were processed

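Gene-level FPKM of 6 mouse prostates, 1 file a mouse, were analysed. Per the labels and the methods of the study, the authors deposited FPKM values made with HISAT and Cufflinks (Cuffnorm among the named tools) on GRCm38/mm10 from stranded, paired-end mRNA libraries. Tool versions are not given in the sources used here, and how Cuffnorm scaled the libraries is not stated. Each file is a separate mouse.

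Genes with a mean of at least 1 FPKM over the 6 mice (13818 of 47719) were fitted on log2(FPKM + 0.1) with limma 3.58.1 in R 4.3.3, with the 3 genotypes as 1 factor, an intensity trend and Benjamini-Hochberg adjustment over all genes tested at 0.05. Fold changes are on this scale, which understates changes of low genes. Intervals used 5.77 degrees of freedom. In data simulated for homozygous against wildtype mice, with 200 of 13818 genes changed, 13% of the changes of log2 1 and 63% of those of log2 2 were recovered. The simulation kept the mean level of each gene but shuffled the spreads between genes. The link between level and spread was therefore lost, and these shares need not hold for genes at the level of the keratins. The read total of each library is not in the files, and the study states only a minimum. Ratios and lists were given no test. Motifs and shared stretches were searched with Python 3.11.15.

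The 9 keratins, the marker lists and the tests were chosen with earlier results of these data known. The text names all 9, from each list any gene called and otherwise up to 4 of the highest mean FPKM, always Trp63, Perp, Epcam and Cdh1, up to 5 other keratins by mean FPKM, and the 5 genes most correlated with Krt5 and with Krt8. Dsg1a, Krt6b, Flg, Svs1, Svs3a, Svs4, Svs5, Svs6 and Pate4 were named after their values were seen. Another pseudocount, filter, scaling or test and each mouse left out were tried as alternatives. Scaling to the pan-epithelial genes, leaving out mice 39 and 47 together, the order by alleles under other scalings, and some sums and ratios without single genes or mice were added after seeing the data.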

Additional observations from a re-analysis of the deposited data

How the results depend on the processing

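No keratin passed the adjusted threshold under any alternative, and in 403 of 429 alternative values the log2 fold change kept its direction, including every value of Krt7, Krt15 and Krt19. For homozygous against wildtype mice these 3 ranged from 0.48 to 1.24, from -0.77 to -0.29 and from -0.86 to -0.46. Leaving out 1 mouse moved the 3 keratins at an unadjusted p under 0.05 in homozygous against wildtype mice to between 1 and 3 (1 without mouse 47 or mouse 49), and the 2 of the 3-genotype test to between 0 and 2. That second count was 1 relative to pan-epithelial genes, with a test on each gene alone and without mice 39 and 47. The log2 basal to luminal ratio of heterozygous against wildtype mice (0.07) was 0.44 with Krt14 / Krt18, -0.11 with 4 basal keratins over Krt8 + Krt18, -0.05 with 4 basal over the 5 others, -0.05 with geometric means, and -0.22 to 0.37 with a mouse left out (-0.22 without mouse 39). That of homozygous against wildtype mice (0.34) was 0.91 with Krt14 / Krt18 (0.10 without mice 39 and 47), -0.03 with 4 basal keratins over Krt8 + Krt18, 0.09 with 4 basal over the 5 others, 0.07 with geometric means, and 0.05 to 0.64 with a mouse left out (0.05 without mouse 39, 0.64 without mouse 41).

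The reversed values were all small. For homozygous against wildtype mice, Krt5 was 0.08 and Krt8 0.02 after quantile normalization, 0.18 and 0.06 relative to pan-epithelial genes, and with a mouse left out Krt5 ranged from -0.35 to 0.23 and Krt8 from -0.39 to 0.03; Krt14 was -0.28 without mice 39 and 47. For homozygous against heterozygous mice, Krt8 was 0.11 and Krt4 0.04 after quantile normalization and 0.09 and 0.12 relative to pan-epithelial genes, Krt5 was -0.05, Krt14 -0.10 and Krt4 0.05 without mice 39 and 47, and with a mouse left out Krt5 ranged from -0.05 to 0.14, Krt14 from -0.10 to 0.54, Krt17 from -0.05 to 0.30, Krt8 from -0.27 to 0.15 and Krt4 from -0.12 to 0.05. For heterozygous against wildtype mice, Krt14 was -0.18 without mice 39 and 47, and with a mouse left out Krt5 ranged from -0.39 to 0.19, Krt14 from -0.18 to 0.82 and Krt18 from -0.23 to 0.00. The cause was not tested. The number of all genes called in homozygous against wildtype mice (53) was 4 with no filter on low values, 23 with no intensity trend, 0 with a test on each gene alone and 4 to 96 with a mouse left out; that of homozygous against heterozygous mice (2) was 0 to 40, that of the 3 genotypes (14) 0 to 9 and that of heterozygous against wildtype mice (0) 0 to 1 with a mouse left out. Without mice 39 and 47 these 3 counts were 30, 68 and 25. The 3 genotypes gave 3 with no filter on low values, 9 with no intensity trend, 4 after quantile normalization and 0 with a test on each gene alone. Where a mouse was left out, the lone mouse of its genotype was assumed to vary like the others. No paired analysis was possible because the animal numbers that serve as replicate numbers are shared by no 2 genotypes. Only 2 mice a genotype limit the precision.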
